A study of Mus musculus with 15 samples.

Results

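Pf4 and Cxcr3 are the genes of a chemokine and of a receptor it can bind, and their levels were followed across 15 nCounter libraries of mouse bone marrow-derived macrophages (BMDMs). They were picked by name, as a ligand and its receptor, from the 754 genes of a myeloid panel, with the outcome of earlier comparisons of the same counts known, and these 2 genes are the whole set. The study asked whether nanoparticles (NPs) that deliver IRF5 mRNA turn M2-like macrophages toward an M1-like state. MPLA standards (4 samples) were BMDMs kept for 4 days in 20 ng/mL monophosphoryl lipid A, an agonist of Toll-like receptor 4. IL4 standards (4 samples) were BMDMs kept for 4 days in 20 ng/mL IL-4. IRF5-NP samples (3, numbered 1, 2 and 4) and eGFP-NP samples (4) had the same IL-4 exposure and then, by the labels, 1 h with 1 µg of NPs. The cargo was IRF5 mRNA or eGFP mRNA. By the study's methods the IRF5-NPs also held IKKβ mRNA, which codes for a kinase that activates IRF5, together with some reporter mRNA for eGFP, the transfected cells with the strongest eGFP signal were sorted and put back into IL-4 before RNA was taken, and the NP amount is given differently. All groups had been grown from marrow in M-CSF, so none of them is an unstimulated macrophage.

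Pf4, also called CXCL4 or platelet factor 4, is stored in the granules of platelets and their precursors, the megakaryocytes, and is also made by monocytes and macrophages. It binds heparin and cell-surface proteoglycans tightly. Cxcr3 is a G protein-coupled receptor best known from activated T cells, natural killer cells and plasmacytoid dendritic cells. It is drawn on by the interferon-induced chemokines Cxcl9, Cxcl10 and Cxcl11, and Pf4 is reported as a further ligand.

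In these data Pf4 was highest in IRF5-NP. Its level there was 2.03 ± 0.39 (SE) log2 units above IL4, 1.93 ± 0.67 above eGFP-NP and 1.74 ± 0.29 above MPLA. After TMM scaling for library size and composition Cxcr3 was also highest on average in IRF5-NP, whereas with spike-in scaling MPLA was higher (5.65 against 5.36 log2 CPM). Its counts lay near the background of the assay and passed it in 4 of 4 MPLA, 1 of 4 IL4, 2 of 3 IRF5-NP and 2 of 4 eGFP-NP libraries. Of the classical ligands of Cxcr3, Cxcl9 and Cxcl11 were above background in no IRF5-NP library, and Cxcl10 in IRF5-NP 2 (29 counts against 28.4) and 4 (43 against 32.4).

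The stretches of DNA before the 2 genes are printed as a description alone, because the genes were chosen with their levels known. After TMM these levels moved together over libraries (Pearson's correlation 0.841), but less so with background subtracted (0.655). The stretches are the 250 bases before the start given by RefSeq (GRCm38.p6), both genes being matched by symbol. The Pf4 stretch is chr5:90772185-90772434 on the plus strand, and the Cxcr3 stretch is chrX:101734148-101734397 on the minus strand. Capitals mark each match to AGGAAG, a core that many ETS factors recognise, in either orientation.
Pf4: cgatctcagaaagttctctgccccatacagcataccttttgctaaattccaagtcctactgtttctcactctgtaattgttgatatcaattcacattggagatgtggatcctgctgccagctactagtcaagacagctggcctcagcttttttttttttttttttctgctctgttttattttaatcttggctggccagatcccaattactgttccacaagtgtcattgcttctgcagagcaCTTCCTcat
Cxcr3: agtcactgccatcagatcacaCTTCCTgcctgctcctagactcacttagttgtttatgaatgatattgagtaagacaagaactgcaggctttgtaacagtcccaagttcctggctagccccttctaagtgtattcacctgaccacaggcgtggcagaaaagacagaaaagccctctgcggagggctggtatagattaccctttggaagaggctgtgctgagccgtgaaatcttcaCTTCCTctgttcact
Pf4 held this core once, 9 to 4 bases before the start, and Cxcr3 held it at 229 to 224 and at 15 to 10 bases before the start. Of 32851 RefSeq promoters cut to the same length, 29.5% held it on at least 1 strand. Spellings of STAT6 sites (TTC and GAA with 4 bases between them, in 5.9% of promoters), IRF sites (GAAA and GAAA with 2 bases between them, 3.0%), GATA sites (AGATAA, 10.0%) and TATA boxes (TATAAA, 12.4%) were in neither stretch on either strand. Pf4 lies in a run of CXC chemokine genes on chromosome 5, in the order Cxcl5, Ppbp, Pf4, Cxcl3, Cxcl15, Cxcl1 and Cxcl2, of which Cxcl5, Cxcl3, Cxcl1 and Cxcl2 were also on the panel.

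Each library was a set of raw probe counts, in which 1 count is 1 target molecule seen by its colour-coded probe. Gene totals were between 1618914 and 1784833 in MPLA, 1087549 and 1639968 in IL4, 266169 and 1510011 in IRF5-NP, and 738305 and 1524232 in eGFP-NP. The lowest total was that of IRF5-NP 4, whose spike-in controls were not low (geometric mean 2412 counts). Background in a library was set at the mean plus 2 SD of its 8 negative controls, a line at 19.7 to 34.9 counts. Counts of eGFP-NP 1 and 2 did not differ beyond the sampling noise and were added to 1 sample (eGFP-NP 1-2), which left n = 3 for eGFP-NP. Of 11 measured macrophage markers, 10 were above background in every MPLA, IL4 and eGFP-NP library and 9 in every IRF5-NP library, and Aif1 was at background in all. Libraries differed in collagen and other stromal transcripts (6 measured genes). Their mean log2 CPM was 12.27 to 12.39 in MPLA and 9.85 to 11.51 in IL4 1, 2 and 4, IRF5-NP 4 and eGFP-NP 3 and 4. It was 3.90 to 4.17 in IL4 3, IRF5-NP 1 and 2 and eGFP-NP 1-2. IL4 2 stood apart in its interferon-induced genes, as given with the ligands. In such bulk samples, fewer cells of a type and less RNA per cell cannot be told apart.

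Pf4 was above background in 15 of 15 libraries. The MPLA libraries 1 to 4 held 226, 319, 310 and 216 Pf4 counts. The IL4 libraries 1 to 4 held 129, 82, 127 and 178 counts. All MPLA counts were above all IL4 counts before scaling. IRF5-NP 1, 2 and 4 held 443, 411 and 256 counts. The eGFP-NP libraries 1 to 4 held 290, 251, 68 and 50 counts. IRF5-NP 1 and 2 had the most Pf4 counts of all libraries, and IRF5-NP 4, with a far smaller total, still had more counts than each IL4 library. The eGFP-NP libraries split into a pair with counts in the MPLA range and a pair below every IL4 library.

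**Figure D1:**
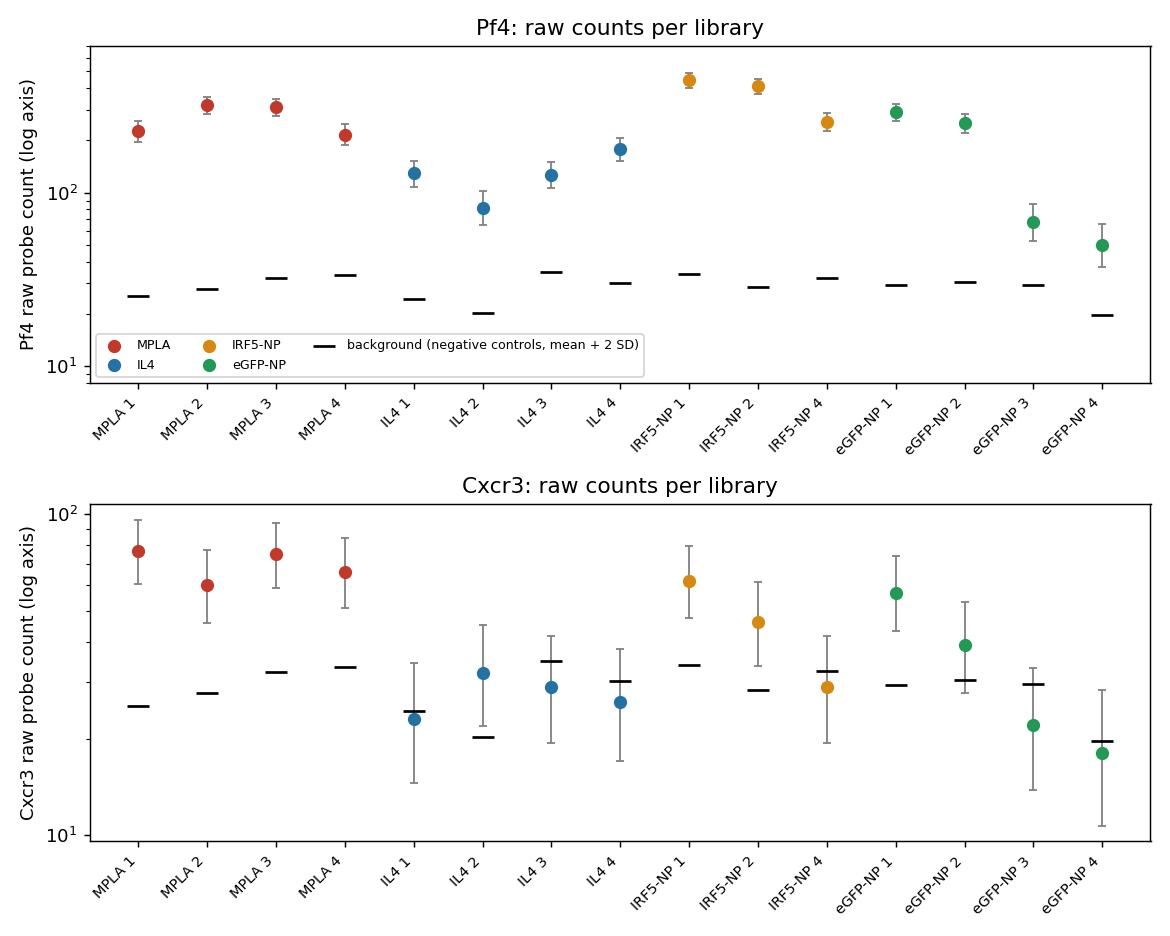
Raw nCounter counts of Pf4 (top) and Cxcr3 (bottom) on log axes for each of the 15 libraries, coloured by group; bars are exact Poisson 95% intervals, which cover counting error only, and black dashes mark the background of each library. Every Pf4 count lies above its dash, whereas the Cxcr3 counts of IL4 1, 3 and 4, IRF5-NP 4 and eGFP-NP 3 and 4 lie below theirs.

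Scaled for library size and composition (log2 CPM after TMM), Pf4 was 6.90, 7.54, 7.36 and 6.85 in MPLA 1 to 4, with a mean of 7.16 ± 0.34 (SD, n = 4). It was 6.85, 5.92, 6.93 and 6.79 in IL4 1 to 4, with a mean of 6.62 ± 0.47 (SD, n = 4). IL4 2 was the low library of that group, and the highest IL4 values reached into the MPLA range. Pf4 was 8.62, 8.57 and 9.12 in IRF5-NP 1, 2 and 4 (8.77 ± 0.31, SD, n = 3). It was 7.92, 6.09 and 5.89 in eGFP-NP 1-2, 3 and 4 (6.63 ± 1.12, SD, n = 3). On this scale all IRF5-NP libraries stood above all others, and eGFP-NP spanned the widest range. The order of the means was IRF5-NP, MPLA, eGFP-NP and IL4. IRF5-NP and MPLA did not overlap, whereas MPLA and eGFP-NP, and eGFP-NP and IL4, overlapped and differed by less than their spread.

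Cxcr3 counts were low throughout. The MPLA libraries 1 to 4 held 77, 60, 75 and 66 counts against background lines of 25.3, 27.8, 32.2 and 33.4. The IL4 libraries 1 to 4 held 23, 32, 29 and 26 counts against 24.3, 20.3, 34.9 and 30.2. Cxcr3 was thus above background in 4 of 4 MPLA libraries but in 1 of 4 IL4 libraries, IL4 2. IRF5-NP 1, 2 and 4 held 62, 46 and 29 counts against 33.9, 28.4 and 32.4. The eGFP-NP libraries 1 to 4 held 57, 39, 22 and 18 counts against 29.4, 30.5, 29.5 and 19.7. Cxcr3 was above background in IRF5-NP 1 and 2 and in eGFP-NP 1 and 2, and not in IRF5-NP 4 or eGFP-NP 3 and 4. The precision is limited by these counts: the exact Poisson 95% interval is 60.8 to 96.2 for the 77 counts of MPLA 1 and 19.4 to 41.6 for the 29 counts of IRF5-NP 4.

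The mean Cxcr3 level (log2 CPM after TMM) was 5.27 ± 0.11 (SD, n = 4) in MPLA and 4.51 ± 0.31 (SD, n = 4) in IL4, with libraries at 5.18 to 5.38 and 4.12 to 4.86. The IRF5-NP libraries 1, 2 and 4 were at 5.81, 5.45 and 6.01 (5.76 ± 0.28, SD, n = 3), and eGFP-NP 1-2, 3 and 4 were at 5.46, 4.52 and 4.48 (4.82 ± 0.56, SD, n = 3). The highest value was that of IRF5-NP 4, whose 29 counts did not pass background and were scaled up with its small total. After subtraction of the negative-control mean, IRF5-NP 4 was at 4.73, below IRF5-NP 1 (5.37) and 2 (4.89) and level with the lowest of the MPLA libraries (4.74 to 5.07). The subtracted IL4 values were 2.37, 3.78, 3.90 and 2.67, all lower than in MPLA. The order of the means was IRF5-NP, MPLA, eGFP-NP and IL4, as for Pf4. MPLA and IRF5-NP did not overlap after TMM scaling but did after background subtraction, and the range of eGFP-NP overlapped with MPLA, IRF5-NP and IL4.

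Between the standards, Pf4 was 0.55 ± 0.30 (SE) log2 units higher in MPLA than in IL4, a 1.46-fold difference, and the groups overlapped. Without IL4 2 the difference was 0.36. Cxcr3 was 0.81 ± 0.21 higher in MPLA and the groups did not overlap. Of all 754 genes, 22.1% were higher in MPLA without overlap. With background subtracted, the Cxcr3 difference was 1.65, in a comparison with 3 of 4 IL4 libraries not above background, and under housekeeping scaling it was 0.52. These and the following differences are fitted by edgeR and are given as descriptions without a test, because the genes were chosen with such values known. The comparisons also share groups and are not independent of each other.

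In IRF5-NP, Pf4 was 2.03 ± 0.39 (SE) log2 units above IL4, which is 4.08-fold, and Cxcr3 was 1.19 ± 0.34 above IL4, which is 2.28-fold. Both genes were without overlap, as were 4.38% of all genes in the same direction. Since this contrast was among the values known at the choice of the genes, nothing is read from their count. The Cxcr3 difference was 0.48 with spike-in scaling, 1.59 with macrophage marker scaling and 1.90 with background subtracted, and 3 of 4 IL4 libraries and IRF5-NP 4 had no Cxcr3 count above background. Pf4 stayed between 1.80 and 2.13 above IL4 when any single library was left out. IRF5-NP 1 and 2 were nearly alike in their counts, so a fit without 1 of them kept the other. With these 2 libraries summed the Pf4 difference was 2.14 ± 0.49. In eGFP-NP, Pf4 was 0.14 ± 0.59 and Cxcr3 0.28 ± 0.36 above IL4, and neither gene was free of overlap (5.04% of all genes were higher without it). The Pf4 difference was -0.69 without eGFP-NP 1-2.

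Set against control particles, Pf4 was 1.93 ± 0.67 (SE) log2 units higher in IRF5-NP than in eGFP-NP, and the groups did not overlap (7.96% of all genes were higher without overlap). Cxcr3 was 0.95 ± 0.44 higher and overlapped. The size of the Pf4 difference depended on which libraries were set side by side. IRF5-NP 1 and eGFP-NP 1 differed by 0.58 log2 units and IRF5-NP 2 and eGFP-NP 2 by 0.79, whereas IRF5-NP 4 and eGFP-NP 4 differed by 3.23. The pairs 1 and 2 lay among the libraries with few stromal transcripts and pair 4 among those with many, and the part of that in the size of the difference was not tested. With the sample number as a block the Pf4 difference was 1.41 ± 0.53, and it was 1.90 with the stromal level as a covariate and 2.89 without eGFP-NP 1-2. With the nearly alike IRF5-NP 1 and 2, and eGFP-NP 3 and 4, also summed it was 1.80 ± 0.89. The Cxcr3 differences of the same pairs were 0.09, 0.31 and 1.53, and 0.54 ± 0.31 with the block. In pair 4 neither library had Cxcr3 above background.

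Against the M1-like standard, Pf4 was 1.74 ± 0.29 (SE) log2 units higher in IRF5-NP than in MPLA, which is 3.34-fold, and Cxcr3 was 0.61 ± 0.23 higher. Both were without overlap, in a comparison in which 17.1% of all genes were higher without overlap. Without IRF5-NP 4 the differences were 1.41 for Pf4 and 0.38 for Cxcr3. With the nearly alike MPLA 1 and 4, MPLA 2 and 3, and IRF5-NP 1 and 2 summed they were 1.87 ± 0.51 and 0.72 ± 0.45. In eGFP-NP, Pf4 was -0.28 ± 0.52 and Cxcr3 -0.41 ± 0.28 relative to MPLA, and both overlapped (16.6% of all genes were higher and 23.6% lower without overlap). Without eGFP-NP 1-2 these values were -1.18 and -0.78. The IRF5-NP level of Pf4 was thus outside the range between the IL4 and MPLA standards in each IRF5-NP library after TMM scaling.

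**Figure D2:**
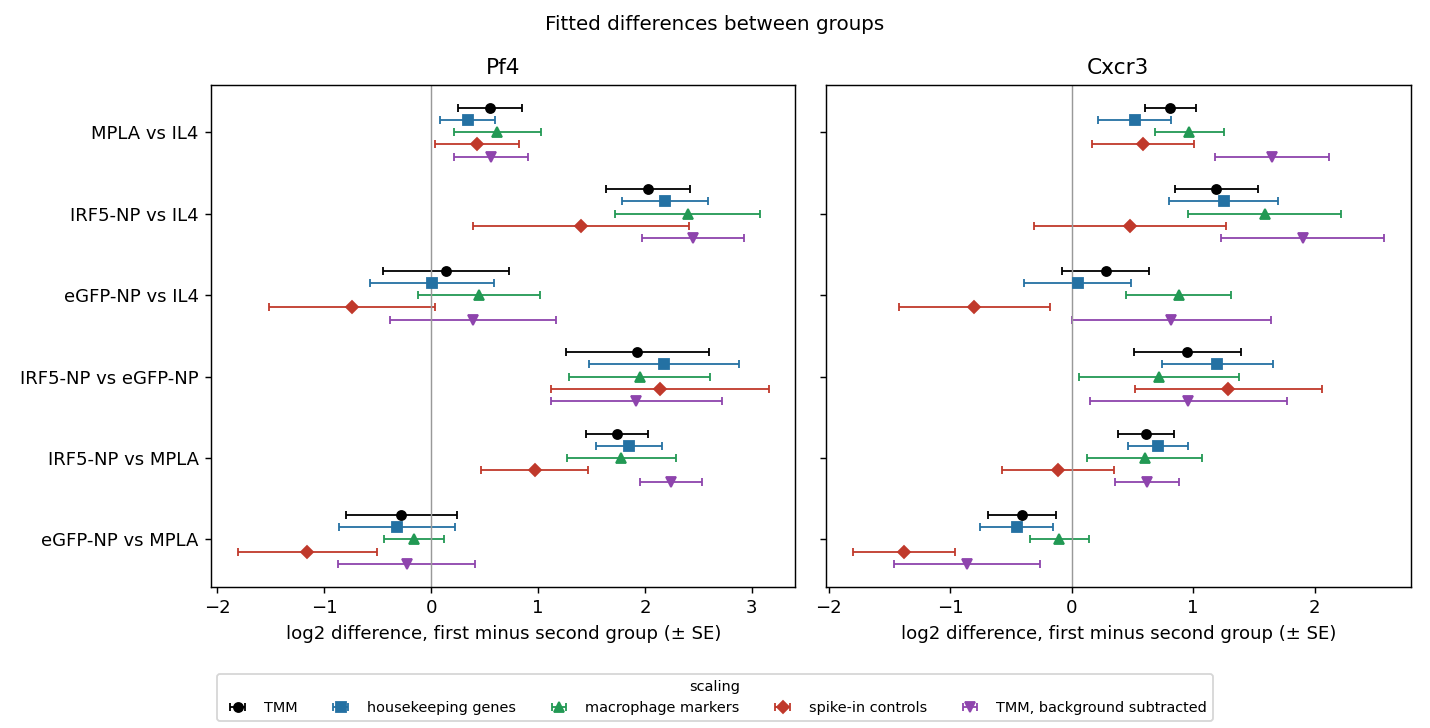
Fitted log2 differences (first minus second group, bars ± SE) of Pf4 and Cxcr3 in 6 comparisons under 4 scalings and with background subtracted. Pf4 in IRF5-NP lies to the right of 0 against IL4, eGFP-NP and MPLA under each setting, by 0.97 to 2.45 log2 units, whereas Cxcr3 against MPLA moves from 0.61 under TMM to -0.11 with spike-in controls.

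Pf4 had its highest mean in IRF5-NP under each scaling tried, but the library IRF5-NP 4 changed place. With the measured housekeeping genes (18) as the base, Pf4 was 8.88 ± 0.54 in IRF5-NP, 7.08 ± 0.34 in MPLA, 6.75 ± 0.30 in IL4 and 6.46 ± 1.14 in eGFP-NP (log2 CPM, SD). With the macrophage markers (11) as the base, eGFP-NP drew together to 7.30, 6.89 and 6.78, and IRF5-NP spread out to 8.14, 8.0 and 9.89. On both bases all IRF5-NP libraries remained above all others. With the spike-in controls as the base, which does not correct for the amount of RNA, IRF5-NP 4 was at 7.26, below all MPLA libraries (7.34 to 7.91) and inside the IL4 range (6.44 to 7.52). IRF5-NP 1 and 2 were at 8.85 and 8.96 there, still above all others. This scaling moved the median difference of all genes between IRF5-NP and IL4 to -0.92, so that the Pf4 difference of 1.40 stands against a panel that was lower.

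**Figure D3:**
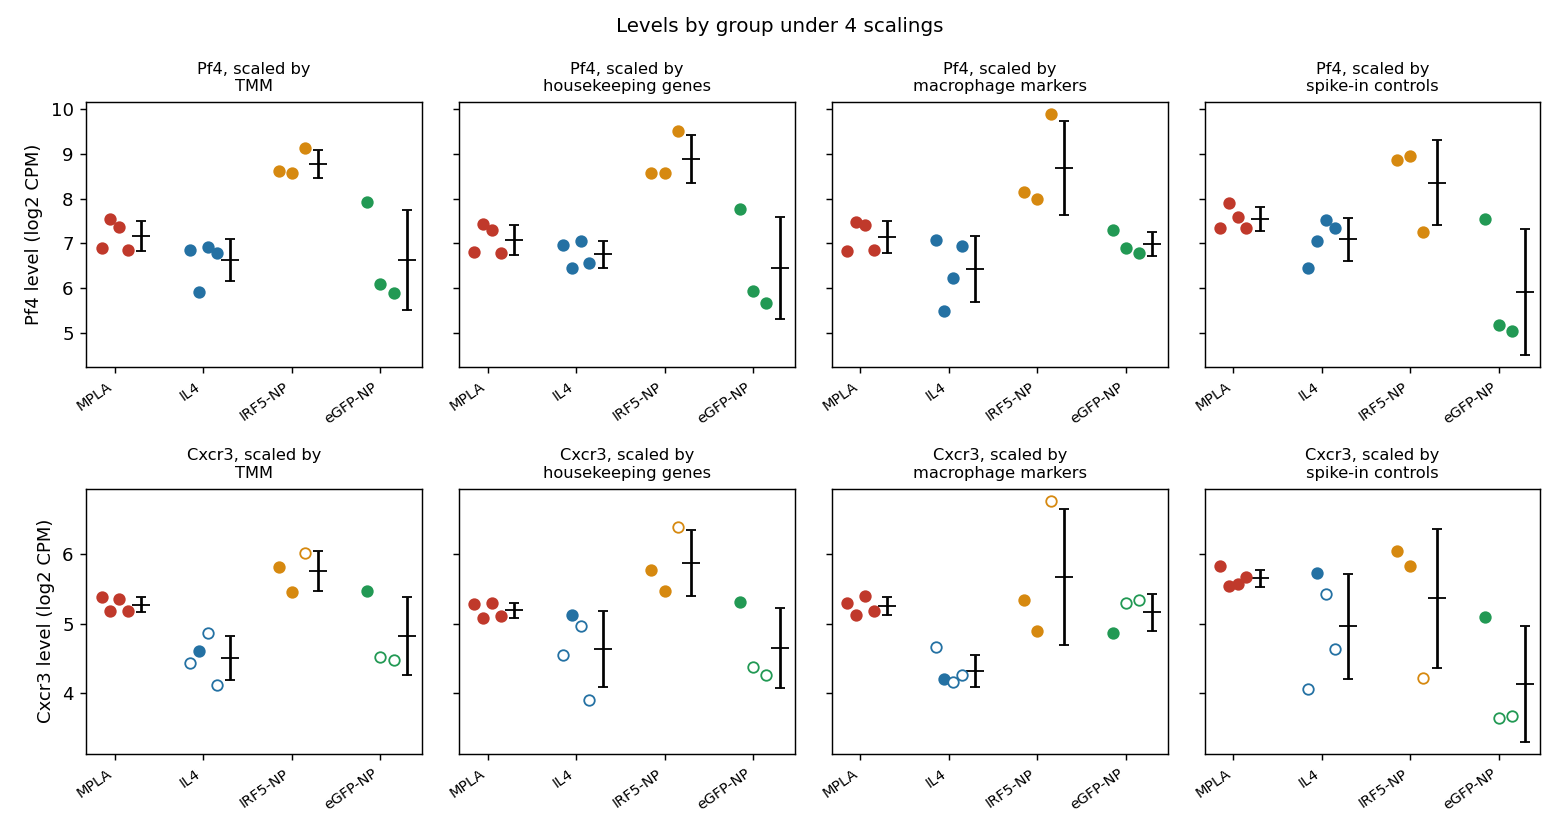
Pf4 (top) and Cxcr3 (bottom) in log2 CPM per library in each group under TMM, housekeeping, macrophage marker and spike-in scaling; points are libraries (eGFP-NP 1 and 2 summed), bars the mean ± SD, and open points have no count above background. IRF5-NP 1 and 2 keep their Pf4 level above MPLA, IL4 and eGFP-NP under each scaling, and IRF5-NP 4 falls to 7.26 with spike-in controls.

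The other ligands of Cxcr3 were Cxcl9, Cxcl10 and Cxcl11, chemokines induced by interferons. Cxcl10 had 532, 378, 431 and 559 counts in MPLA 1 to 4 and 24, 2736, 33 and 152 in IL4 1 to 4. It had 30, 29 and 43 counts in IRF5-NP 1, 2 and 4 and 13, 13, 79 and 60 in eGFP-NP 1 to 4. MPLA libraries thus held at least 378 Cxcl10 counts, while all IRF5-NP libraries were at or just above background. Cxcl9 had 54, 47, 53 and 81 counts in MPLA 1 to 4, 15, 15 and 32 in IRF5-NP 1, 2 and 4 and 20, 12, 22 and 21 in eGFP-NP 1 to 4. In IL4 1 to 4 it had 27, 24006, 36 and 26. Cxcl11 stayed at 8 to 43 counts in all libraries other than IL4 2, which held 212, and was above background in the 4 MPLA libraries and IL4 2 alone.

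IL4 2 carried most of the interferon-induced ligand counts of its group, and it was also the IL4 library with the lowest Pf4 and the sole one with Cxcr3 above background. Its background line was low, however, at 20.3 counts against 34.9 in IL4 3. After TMM its Cxcr3 level was below that of IL4 3 (4.61 against 4.86 log2 CPM). The mean of the measured interferon response genes (8) was 10.49 log2 CPM in IL4 2 and 6.01 to 6.71 in the other IL4 libraries. With all libraries in, edgeR called none of Cxcl9, Cxcl10 and Cxcl11 between MPLA and IL4 (1 of 3 at an unadjusted p under 0.05, as had 40.3% of all genes). The fitted Cxcl10 difference was -1.02 ± 1.28 although its mean log2 level was higher in MPLA (7.99 against 6.76). Without IL4 2, Cxcl10 was 2.37 ± 0.52 higher in MPLA (edgeR adjusted p = 0.0105), and Cxcl9 (0.39 ± 0.29) and Cxcl11 (0.76 ± 0.28) did not pass (adjusted p = 0.316 and 0.0704). Against MPLA, Cxcl10 fell in IRF5-NP by 2.26 ± 0.58 and in eGFP-NP by 2.34 ± 0.62 on the log2 scale (edgeR adjusted p = 0.0342 and 0.0401). Both calls were lost in 6 of the 7 fits that left out 1 library. Of the 8 interferon response genes, 5 were called lower than in MPLA in each NP group, as were 12.9% of all genes in IRF5-NP and 12.5% in eGFP-NP, among them the antiviral GTPase Mx2 (-1.70 ± 0.45 in IRF5-NP and -2.41 ± 0.24 in eGFP-NP, adjusted p = 0.0363 and 0.00122, at 13 to 22 counts that passed background in no NP library), and none was called between MPLA and IL4 (2 at an unadjusted p under 0.05, and 2 by DESeq2). Against MPLA the methods' t-test called 0 of these 8 in IRF5-NP and 2 in eGFP-NP (10 and 48 of all 754 genes). DESeq2 called 6 of the 8 in each (388 and 229 of all genes). Pf4 and Cxcl10 thus ran in opposite directions between IRF5-NP and MPLA.

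**Figure D4:**
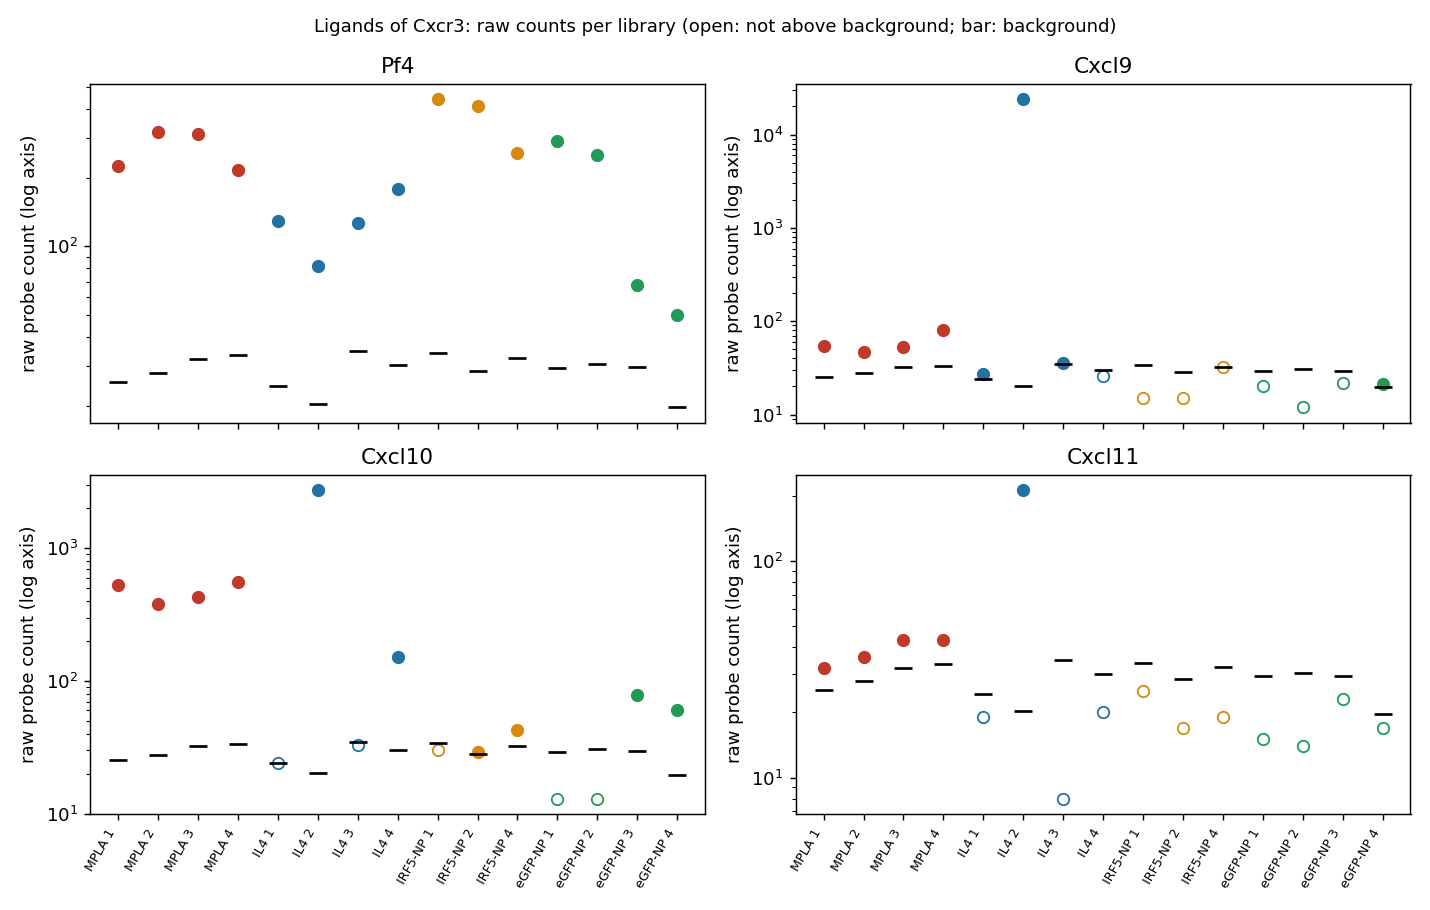
Raw counts (log axes) of Pf4, Cxcl9, Cxcl10 and Cxcl11 in the 15 libraries, coloured by group as red for MPLA, blue for IL4, orange for IRF5-NP and green for eGFP-NP; dashes are the background and open points lie at or below it. IL4 2 holds 24006 Cxcl9 counts against 12 to 81 elsewhere, and of these 4 genes Pf4 alone is above background in every library.

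Of the CXC family, 16 genes were measured beside Pf4 and Cxcr3: 11 chemokines and 5 receptors. Between MPLA and IL4, edgeR called 4 of the 16 higher in MPLA and none lower, against 26.4% of all genes called (12.2% higher and 14.2% lower). The median difference of the 16 was -0.01 log2 units, and that of all genes -0.05. Those called were the neutrophil-attracting chemokines Cxcl1 (3.98 ± 0.75, adjusted p = 0.00817), Cxcl2 (4.28 ± 0.30, adjusted p = 7.83e-05) and Cxcl5 (4.24 ± 0.80, adjusted p = 0.00817), and Cxcl14 (0.91 ± 0.25, adjusted p = 0.0335). Cxcl1, Cxcl2 and Cxcl5 lie in the same run on chromosome 5 as Pf4, whose difference there was 0.55. They kept their calls when any of 8 libraries was left out, and Cxcl14 kept its call in 3 of 8. The count of 4 was 1 with nearly alike libraries summed, 2 in a fit of all groups and 1 by the methods' t-test. Cxcl3, a further gene of that run, had 435 to 914 counts in MPLA and 18, 39, 20 and 1018 in IL4 1 to 4, and was not called. This rested on IL4 4, without which Cxcl3 was 4.02 ± 0.40 higher in MPLA (edgeR adjusted p = 0.00139).

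In IRF5-NP these neighbours of Pf4 differed between libraries. Cxcl1 had 14, 12 and 419 counts in IRF5-NP 1, 2 and 4, Cxcl5 had 20, 14 and 2323, and Cxcl3 had 17, 13 and 249. IRF5-NP 1 and 2 were at background for these genes, and IRF5-NP 4 was not. On the log2 CPM scale IRF5-NP 4, which also had the highest Pf4 there (9.12), stood at 9.83 for Cxcl1, 12.30 for Cxcl5 and 9.08 for Cxcl3, against 11.35 to 11.91 for Cxcl1, 12.21 to 12.72 for Cxcl5 and 7.88 to 8.90 for Cxcl3 in MPLA. The mean stromal level moved with this split, at 4.08 and 3.90 log2 CPM in IRF5-NP 1 and 2 and 10.77 in IRF5-NP 4, and its part in these levels was not tested. Of the 16 CXC genes edgeR called none between IRF5-NP and IL4 (1 at an unadjusted p under 0.05), none between eGFP-NP and IL4 (1) and none between IRF5-NP and eGFP-NP (0), and DESeq2 and the methods' t-test called none either. In each of these comparisons 0% of all genes were called (7.03%, 11.1% and 5.57% at an unadjusted p under 0.05). With DESeq2 the calls over all 754 genes were 19, 56 and 6, and with the methods' t-test they were 0, 1 and 0. The medians of the 16 were 0.15, -0.50 and 0.65, and those of all genes -0.14, -0.08 and 0.10.

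Relative to MPLA, 1 CXC gene was called higher in IRF5-NP and 3 lower, against 24.4% of all genes (11.5% higher and 12.9% lower). The called chemokines were Cxcl2 (-3.01 ± 0.82, edgeR adjusted p = 0.0399), Cxcl10 as above, and Cxcl16, the transmembrane ligand of Cxcr6 (-0.89 ± 0.15, adjusted p = 0.0124). Of the 7 fits that left out 1 library, Cxcl2 kept its call in 1 and Cxcl16 in 6. The receptor called higher was Cxcr2, at 5 to 22 counts, below background in all 7 libraries compared. The count of 4 became 12 when IRF5-NP 4 was left out, 0 when IRF5-NP 2 was, 1 when IRF5-NP 1 was and 2 when any MPLA library was. It was 0 with nearly alike libraries summed or with macrophage marker scaling, and 11 with the stromal covariate. In eGFP-NP, 6 of 16 were called lower than in MPLA and none higher, against 19.6% of all genes (7.16% higher and 12.5% lower). These were Cxcl1, Cxcl2, Cxcl3, Cxcl5, Cxcl10 and Cxcl16, and only Cxcl2 (-4.02 ± 0.30, adjusted p = 0.000346) kept its call when any of 7 libraries was left out. The count was 10 without eGFP-NP 1-2 and 2 without any other library, and 0 with nearly alike libraries summed, so that Cxcl2 too was not called there.

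Among the CXC receptors other than Cxcr3, Cxcr4, the receptor of Cxcl12, was the sole gene above background in every library, with 893 to 1104 counts in MPLA, 600 to 1522 in IL4, 200 to 910 in eGFP-NP and 55 to 877 in IRF5-NP. Cxcr1 was at background in all libraries. Cxcr2, Cxcr5 and Cxcr6 passed background in a few libraries at up to 36 counts. Cxcr4 was called in none of the 6 comparisons. Cxcl12 had 21690 to 25298 counts in MPLA and 7 to 12 in IL4 3, IRF5-NP 1 and 2, and 5 and 8 in eGFP-NP 1 and 2. Cxcl12 was thus at background in these libraries, all with few stromal transcripts, where Pf4 ranged from 127 to 443 counts.

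Other reported binding partners of Pf4 include Ccr1, the integrin subunits Itgam and Itgb2, thrombomodulin (Thbd) and the growth factor Fgf2. Between MPLA and IL4, edgeR called Ccr1 (-1.35 ± 0.30, adjusted p = 0.0146) and Itgb2 (-1.29 ± 0.32, adjusted p = 0.0235) lower in MPLA, and none higher, against 14.2% of all genes lower and 12.2% higher. None of these 5 genes was called in IRF5-NP or eGFP-NP relative to IL4, or between them (0 at an unadjusted p under 0.05, and 0 by DESeq2). Fgf2 was called higher in eGFP-NP than in MPLA at 12 to 28 counts, with eGFP-NP 4 the sole library of the comparison above background. Of 13 genes that relay signals of chemokine receptors 4 were measured, Gnai3, Pik3cg, Vav1 and Rgs1, and none was called in any comparison (0 at an unadjusted p under 0.05, and 0 by DESeq2).

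Pf4 is also listed among genes of resident macrophages. Of the 11 others measured, 6 were called lower in MPLA than in IL4 and 1 higher, against 14.2% of all genes lower and 12.2% higher. With all libraries in, the fall was largest for the complement subunits C1qb (-3.72 ± 0.68, edgeR adjusted p = 0.00746) and C1qa (-3.43 ± 0.66, adjusted p = 0.00889) and the chemokine Ccl8 (-3.31 ± 0.50, adjusted p = 0.00278), while Pf4 stood at 0.55 ± 0.30. The median of the 11 was -2.49 log2 units, and that of all genes -0.05. C1qa and C1qb were highest in IL4 2, at 15028 and 36950 counts. Without IL4 2 the differences were -2.37 ± 0.19 and -2.63 ± 0.22 (edgeR adjusted p = 0.00014 for both), smaller than that of Ccl8 (-3.24 ± 0.53, adjusted p = 0.00322), 8 of the 11 were called lower and 1 higher, and the median was -1.70. Without MPLA 1 or without MPLA 4, 4 of the 11 were called lower. The higher call was lost without any 1 of the MPLA libraries. By the methods' t-test 0 of the 11 were called, and 21 of all 754 genes. Against IL4, C1qb was at -3.46 ± 0.91, C1qa at -2.64 ± 0.83 and Ccl8 at -2.55 ± 0.63 in IRF5-NP, where Pf4 was at 2.03. None of the 11 was called there by edgeR, as was none of all genes. At an unadjusted edgeR p under 0.05 stood 4 of the 11 and 7.03% of all genes. DESeq2 called 3 of the 11 and 19 of all 754 genes. Relative to eGFP-NP, 3 of the 11 were higher in IRF5-NP without overlap, C1qa (2.23 ± 0.41), C1qb (1.62 ± 0.37) and C1qc (1.51 ± 0.42). The rest of the 11 overlapped. Pf4 (1.93) was also higher without overlap, as were 7.96% of all genes. In that comparison the median of the 11 was 0.95 and that of all genes 0.10, and edgeR called none of either. At an unadjusted edgeR p under 0.05 stood 3 of the 11 and 5.57% of all genes. DESeq2 called 1 of the 11 and 6 of all 754 genes. Relative to MPLA, 4 of the 11 were called higher and 1 lower in IRF5-NP, and 2 higher and 3 lower in eGFP-NP. Of all genes, 11.5% were called higher and 12.9% lower in IRF5-NP, and 7.16% higher and 12.5% lower in eGFP-NP. C1qa was among those higher in IRF5-NP (1.01 ± 0.18, adjusted p = 0.0129).

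Since Pf4 is a platelet product, markers of platelets and megakaryocytes were read beside it. Of 17 listed genes 3 were measured, Selp, Clec1b and Gata1. Clec1b and Gata1 were not above background in any library. Their summed count with Selp was 56 to 62 in MPLA, 45 to 50 in IRF5-NP, 29 to 56 in eGFP-NP and 47 to 113 in IL4. In raw counts the IRF5-NP libraries held no more of these markers than MPLA did, and their mean level was 3.64 to 4.93 log2 CPM in IRF5-NP and 3.46 to 3.57 in MPLA. Selp, an adhesion molecule of platelets and endothelium, was called lower in MPLA than in IL4 (-1.07 ± 0.30, adjusted p = 0.0331). Gata1 was called higher in IRF5-NP than in MPLA (1.12 ± 0.31, edgeR adjusted p = 0.0410) at 10 to 22 counts. Other defining platelet genes such as Ppbp and Itga2b were not measured, and a part of platelet RNA in the Pf4 counts was not tested.

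Cxcr3 is known from lymphocytes and plasmacytoid dendritic cells. Of 22 listed T and natural killer cell genes 5 were measured, Cd247, Klrk1, Nkg7, Gzma and Ifng. Their summed count was 66 to 89 in MPLA, 43 to 78 in eGFP-NP and 77 to 97 in IRF5-NP, and no gene of the list passed background in an NP library. In MPLA, Cd247 alone of the 5 passed it, in 2 of 4 libraries, with 21 to 33 counts over the group. Gzma and Ifng were called higher in IRF5-NP than in MPLA by edgeR at 5 to 23 counts, all below background. The summed count in IL4 was 66 to 406, with 341 Klrk1 counts in IL4 2 and 68 Nkg7 counts in IL4 3. Of 11 plasmacytoid dendritic cell genes 5 were measured, and Irf8, Tlr9 and Runx2, which macrophages also express, had the most counts of the 5 in MPLA. Tlr9 had 85, 1423, 230 and 247 counts in IL4 1 to 4, 243 to 273 in MPLA, 36 to 79 in eGFP-NP and 24 to 55 in IRF5-NP, where it was not above background in IRF5-NP 4. Its highest count was thus that of IL4 2. Runx2 was called higher in MPLA than in IL4 (1.06 ± 0.23, edgeR adjusted p = 0.0143), Tlr9 was called lower in IRF5-NP (-1.43 ± 0.18, adjusted p = 0.00586) and eGFP-NP (-1.48 ± 0.19, adjusted p = 0.00328) than in MPLA, and Ccr9 and Klk1 reached at most 34 counts. A part of these cells in the Cxcr3 counts was not tested.

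The genes whose levels ran most like Pf4 were sought among 548 other genes, all above background in at least 7 of 14 libraries. By Pearson's correlation of log2 CPM over the 14 libraries, Cxcr3 came first for Pf4 (r = 0.841, Spearman's rho = 0.868), and Pf4 came first for Cxcr3. Next for Pf4 were Tnfsf4, the OX40 ligand (0.730), the adhesion molecule Ceacam1 (0.696), the transporter Slc16a6 (0.693) and the acyl-CoA dehydrogenase Acad10 (0.680). Next for Cxcr3 were Tnfsf4 (0.764), Acad10 (0.713), the complement receptor C5ar1 (0.677) and the calprotectin subunit S100a8 (0.642). The libraries share groups, depth and background, so these correlations describe them and carry no test. Without IRF5-NP 4 the correlation of Pf4 and Cxcr3 was 0.788 and Cxcr3 came only 23rd for Pf4 and Pf4 9th for Cxcr3. With any other library left out it was 0.813 to 0.897 and each gene stayed first for the other. With background subtracted it was 0.655, and Cxcr3 came 3rd and Pf4 18th. With spike-in scaling it was 0.835, and Cxcr3 came 2nd and Pf4 28th. Within groups, as deviations from the group means, it was 0.653, and Cxcr3 came 10th and Pf4 12th.

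**Figure D5:**
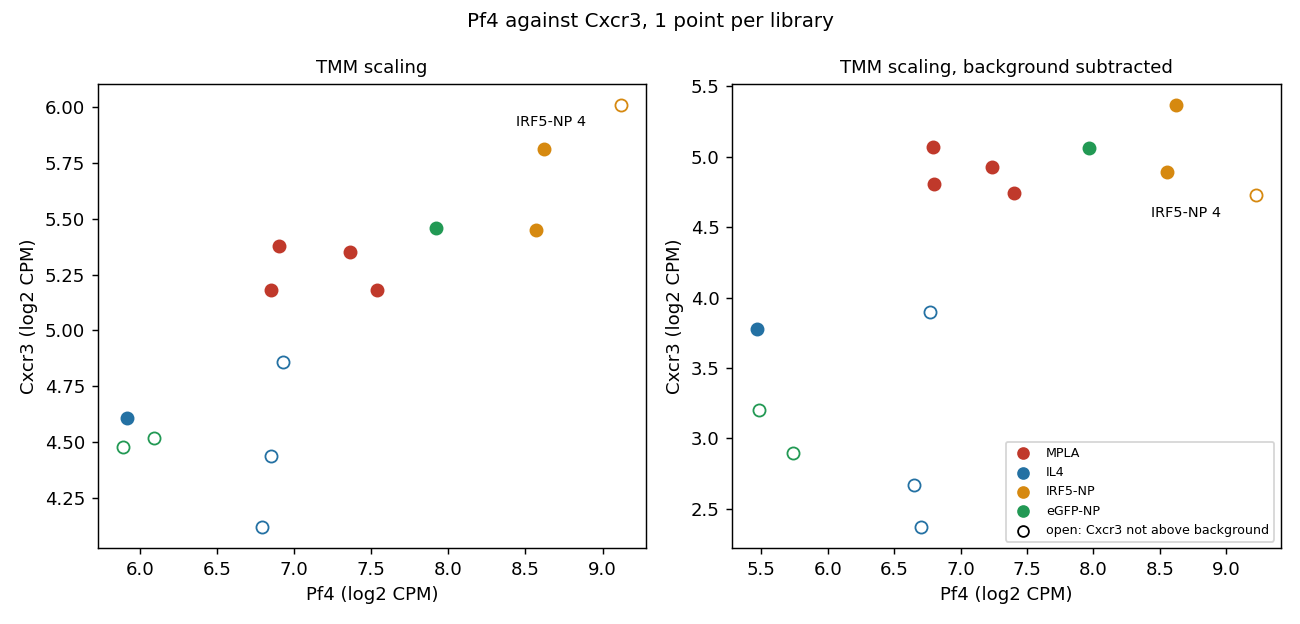
Cxcr3 against Pf4 in log2 CPM, 1 point per library (14), after TMM scaling (left) and with the negative-control mean subtracted as well (right); open points have no Cxcr3 count above background. On the left IRF5-NP 4 is at the top right corner (9.12 and 6.01); on the right its Cxcr3 (4.73) lies below those of IRF5-NP 1 and 2, and the correlation drops from 0.841 to 0.655.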

How the data were processed

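The authors deposited raw nCounter counts of 768 probes (754 genes, 6 positive and 8 negative controls) for 15 samples. Per the study's methods, counts were checked with NanoStringQCPro and scaled to housekeeping genes in nSolver, which had not been done to the deposited counts. Groups and sample numbers come from the labels, which do not say whether samples were separate cultures, so p-values measure only the spread between these samples. The 2 genes, the gene lists and the tests were chosen with earlier results of these data known.

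Groups were compared by edgeR 4.0.16 (glmQLFit and glmQLFTest, R 4.3.3) with TMM on the 2 groups alone, without a filter, two-sided, at a Benjamini-Hochberg adjusted p under 0.05 over 754 genes. The SE is the log2 difference over the root of F. Levels per library are log2 CPM with a prior count of 2. Counts of eGFP-NP 1 and 2 were compared by chi-square, on genes whose counts added to 40 or more (p = 0.0817), and summed. The 4 other pairs that were nearly as alike were MPLA 1 and 4, MPLA 2 and 3, IRF5-NP 1 and 2, and eGFP-NP 3 and 4. They were summed in an alternative. Named genes were Pf4, Cxcr3, the CXC genes and Pf4 partners, up to 3 genes of each further list by the size of the MPLA and IL4 difference, and the 5 genes most like each; members of other small counts, such as Aif1 and Tlr9, were named after their values were seen. The fit was tested on simulated counts. Alternatives were other scalings (DESeq2 1.42.0 size factors, housekeeping genes, macrophage markers, spike-ins), DESeq2, the methods' t-test, a low-count filter, a fit of all groups, a stromal covariate, a block, each library left out and, added after seeing the data, background subtraction and single genes with each library left out. Same-numbered samples deviated together in IRF5-NP and eGFP-NP (r = 0.823, 0.821 and 0.818 for numbers 1, 2 and 4), and there the numbers were taken as pairs, although IRF5-NP 4 correlated best with eGFP-NP 3; in each other comparison at least 1 number was under 0.1. Poisson intervals cover counting error only. Promoters are RefSeq's (GRCm38.p6); no genome build goes with the counts. A result on 1 gene and 1 motif searched are not reported here.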

Additional observations from a re-analysis of the deposited data

Results flagged for a closer look

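Of 40 sets of a gene and a group of 4 libraries that were looked at, 4 had a library far from the other 3, and chance alone would mark about 1 in 20. In each case the gap to the nearest library, as a share of the range of the group, passed Dixon's 95% critical value for 4 samples. Pf4 in IL4 2 had a gap of 0.853, at 5.92 log2 CPM against 6.79 to 6.93 in the other IL4 libraries. Cxcl9 in the same library had a gap of 0.895, at 14.08 against 4.12 to 5.16. Cxcl9 in MPLA 4 had a gap of 0.926, at 5.47 against 4.84 to 4.89. Cxcl3 in IL4 4 had a gap of 0.851, at 9.29 against 4.11 to 4.88.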

How the results depend on the processing

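Of 233 alternatives to the 12 Pf4 and Cxcr3 differences, 206 moved the value by less than the spread between replicates, 27 by more, and 10 changed its sign. With spike-in scaling the Pf4 difference was 1.40 for IRF5-NP against IL4, -0.74 for eGFP-NP against IL4, 0.97 for IRF5-NP against MPLA and -1.16 for eGFP-NP against MPLA. That of Cxcr3 was 0.48, -0.80, -0.11 and -1.38, and the median of all genes moved to -0.92, -1.09, -0.89 and -1.06. Macrophage marker scaling gave Cxcr3 1.59 in IRF5-NP and 0.88 in eGFP-NP against IL4, and housekeeping scaling gave it 0.52 between MPLA and IL4. Background subtraction gave Pf4 2.45 (IRF5-NP against IL4) and 2.24 (IRF5-NP against MPLA). It gave Cxcr3 1.65 (MPLA against IL4), 1.90 (IRF5-NP against IL4), 0.82 (eGFP-NP against IL4) and -0.86 (eGFP-NP against MPLA). The stromal covariate gave 2.39 and 1.18 for IRF5-NP and -1.55 and -1.01 for eGFP-NP against MPLA (Pf4 and Cxcr3). With a library left out, Pf4 ranged from -0.69 to 0.48 (eGFP-NP against IL4), 1.45 to 2.89 (IRF5-NP against eGFP-NP), 1.41 to 1.88 (IRF5-NP against MPLA) and -1.18 to 0.13 (eGFP-NP against MPLA). Cxcr3 ranged from 0.38 to 0.79 and from -0.78 to -0.15 in the comparisons with MPLA. A filter on low counts removed Cxcr3 between eGFP-NP and IL4. Counts near background limit all Cxcr3 values.

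Calls among the CXC genes between MPLA and IL4 (4) were 1 with alike pairs summed, 2 in a fit of all groups and 1 by the methods' t-test. Between IRF5-NP and IL4 (0) they were 2 with spike-ins. Between IRF5-NP and MPLA (4) they were 0 with macrophage markers or with pairs summed, 11 with the stromal covariate, 1 by the t-test, 2 with background subtracted and 0 to 12 with a library left out. Between eGFP-NP and MPLA (6) they were 11 with spike-ins, 3 with macrophage markers, 0 with pairs summed, 1 in a fit of all groups, 1 by the t-test, 2 with background subtracted and 2 to 10 with a library left out. The cause was not tested. With the sample number as a block the counts against MPLA were 0 for IRF5-NP and 2 for eGFP-NP, and the Pf4 differences were 0.56 (MPLA against IL4), 2.15, 0.19, 1.41, 1.77 and -0.27 in the order of the plot of differences. The block changed no other count by over 1.5 times.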
